A study of Mus musculus with 15 samples.

Results

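The genes described here code for the axoneme of the motile cilium and for the factor that switches its genes on, Foxj1. They were taken from the gene symbols of the thalamus RNA-seq tables by name: every Cfap, Dnah, Rsph, Tekt and Drc gene with a number in its symbol, and Foxj1, Ccdc153, Tmem212, Ak7, Pifo and Dynlrb2. This gave 63 of the 25080 genes in the tables, of which 31 were Cfap genes, 11 were dynein heavy chains (Dnah), 7 were radial spoke genes (Rsph), 5 were tektins (Tekt), 3 were Drc genes and 6 were named singly. No expression value entered the choice, although it was made with earlier results of these data known. Cfap126 was listed at 0 in every library, which left 62 genes with a value above 0 somewhere.

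A motile cilium beats because dynein motors walk between the doublet microtubules of its core, the axoneme. The dynein heavy chains are the motors of the outer and inner arms, the nexin-dynein regulatory complex (Drc genes) ties neighbouring doublets together, the radial spokes (Rsph genes) relay signals from the central pair of microtubules to the arms, and the tektins are filaments inside the doublet wall. In the brain, beating cilia sit on the ependymal cells that line the ventricles, including the third ventricle beside the thalamus, and Foxj1 is the forkhead factor these cells need to build them. Neurons carry at most a single non-motile cilium, which lacks the dynein arms and spokes.

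RNA was sequenced from whole, unsorted thalami of mice of 2 to 4 months that carried a floxed Maged1 gene (control) or that also carried a Vglut2-Cre driver, which removes Maged1 from Vglut2 glutamatergic neurons (cKO). In the sample titles the control mice are called Maged1 WT, and the floxed gene comes from the genotype tags and the paper's figure legend. After 3 days of saline habituation the mice received saline or cocaine at 20 mg/kg for 5 days. By the sample titles there were 8 saline libraries, 4 of each genotype, and 6 cocaine libraries, 4 control and 2 cKO, and a further cKO cocaine sample was not analysed here. The values deposited are TPM, that is, read abundance per transcript length scaled to the library total, so that levels of different genes can be compared, but the number of reads behind each value is unknown. Here each library's TPM was divided by a trimmed-mean (TMM) factor and is called scaled TPM. Genes that reached 1 TPM in 3 or more libraries, 13471 of them, entered a limma fit on log2(scaled TPM + 0.5). A call needed an adjusted p (Benjamini-Hochberg) under 0.05 together with a log2 fold change of 0.5 or more in size. The added 0.5 makes fold changes of genes near or below 1 TPM, as most of these are, smaller than those of the values themselves.

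The labels limit every comparison between groups. Maged1, the inactivated gene, was at 153.1, 167.2, 149.9 and 151.3 scaled TPM in control saline and at 77.4, 76.6, 68.2 and 64.6 in cKO saline. In the libraries labelled control cocaine it was at 58.5, 87.7, 77.3 and 70.7, all far below control saline and close to cKO saline. The pair labelled cKO cocaine had 153.8 and 174.0, at or above most of control saline. The targeted gene therefore went against both cocaine labels, and every direction below that involves cocaine holds for the libraries as labelled. Under either label the cocaine and saline libraries also differed in Maged1. A difference with cocaine therefore cannot be told apart from one of genotype, and the same holds for the interaction. In addition, the genotype tag of 4 saline libraries names the other genotype (control saline 3 and 4, cKO saline 1 and 2). The titles, by which Maged1 separates, were followed. Nothing beyond the labels says how the animals of a group were related, so the p-values measure the spread between these libraries.

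Most of the motile cilium genes were expressed at a low level in the thalamus. Foxj1, on chromosome 11 of GRCm38 (116330704 to 116335399, minus strand), was detected in all 14 libraries, at 2.36 to 8.32 scaled TPM. Over the members, 34 had a mean under 1 scaled TPM and 3 had a mean of at least 10. Those 3 were Cfap36, an Arl3-binding protein (mean 27.8), Cfap20, a protein of the doublet inner wall (12.6), and Cfap298, which is needed to assemble dynein arms (10.2). Of the 63, 42 passed the filter and were tested, namely 18 Cfap genes, 6 dynein heavy chains, 5 Rsph genes, 4 tektins, 3 Drc genes and the 6 named singly. The filter was not neutral to the groups. For 11 of the tested genes it was met only with the control saline libraries counted, and 2 of these, Dnah10 and Dnah12, reached 1 TPM in no other group.

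The most visible feature of these genes was variation between libraries of the same group. Foxj1 was at 8.32, 7.38, 6.86 and 6.71 scaled TPM in control saline (mean 7.32 ± 0.73 SD, n = 4). It was at 6.84, 4.72, 5.15 and 2.39 in the libraries labelled control cocaine (4.78 ± 1.8, n = 4) and at 2.36, 4.75, 3.62 and 5.44 in cKO saline (4.04 ± 1.3, n = 4). The pair labelled cKO cocaine had 8.25 and 5.96 (7.11 ± 1.6, n = 2). Control saline was tight, control cocaine 1 lay within its range, and the lowest values were in control cocaine 4 and cKO saline 1.

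The same libraries stood at the bottom for most members. Control cocaine 4 held the lowest value of 29 members and cKO saline 1 that of 21, together 50 of 62, and these were the lowest 2 of the 14 libraries for 41 of 62 members. Over all 20427 genes above 0, that pair took the lowest places for 2.67%. All 6 genes named singly, all 3 Drc genes, 9 of 11 dynein heavy chains, 4 of 7 Rsph genes, 2 of 5 tektins and 17 of 31 Cfap genes followed it. For Tekt3, counted among these, the pair was at 0 together with cKO cocaine 2. Such ties were not counted in the share over all genes. The highest values were spread over more libraries, with 16 members highest in cKO cocaine 1, 11 in control saline 2 and 8 in control saline 1. No member was highest in control cocaine 4 or cKO saline 1, nor in cKO saline 3 or cKO saline 4. The pair was singled out after its values were seen, so these counts describe the libraries and do not test them.

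**Figure D1:**
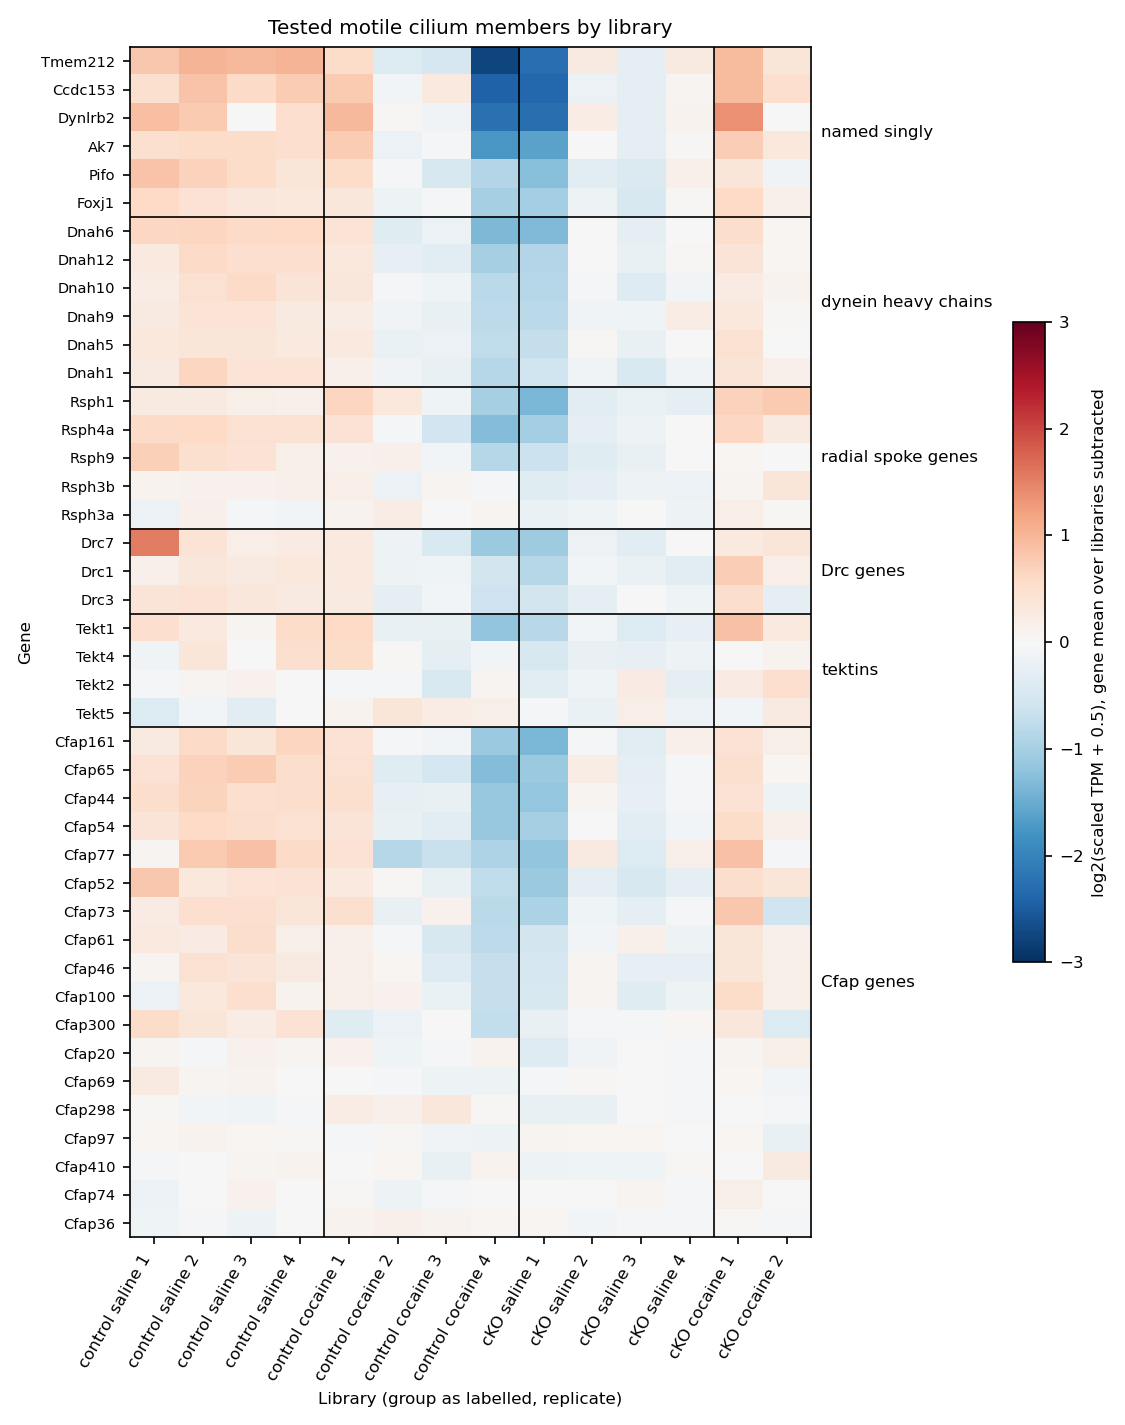
Heat map of log2(scaled TPM + 0.5) of the 42 tested members (rows, by part of the axoneme) in the 14 libraries (columns), with each gene's mean over the libraries subtracted. Control cocaine 4 and cKO saline 1 are the blue columns for most rows, and Cfap36, Cfap74, Cfap298 and Tekt5 are rows without them.

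The depth of this drop differed between members. Tmem212, a membrane protein known as an ependymal marker, was at 7.22, 8.33, 8.16 and 8.43 scaled TPM in control saline, at 0.146 in control cocaine 4 and at 0.394 in cKO saline 1, which is 1.8% and 4.9% of the control saline mean. Ak7, the adenylate kinase of motile cilia and flagella, was at 2.4% and 5.2% of that mean in the same libraries. Ccdc153, a coiled-coil protein also used as an ependymal marker, was at 5.0% and 5.7%. Dynlrb2, a dynein light chain of the roadblock family, was at 5.0% and 4.6%. Foxj1 was less low, at 32.6% and 32.3%.

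The level of the group as a whole was summarized for each library as the mean over the 62 members of log2(scaled TPM + 0.5) minus each gene's mean. It was 0.27, 0.35, 0.28 and 0.28 in control saline and 0.26, -0.08, -0.15 and -0.69 in the libraries labelled control cocaine. It was -0.70, -0.08, -0.18 and -0.04 in cKO saline, and the pair labelled cKO cocaine had 0.38 and 0.09. Control cocaine 1 stood with control saline and apart from the other 3 libraries of its own label. The range within a group was 0.072 in control saline, 0.95 in control cocaine and 0.66 in cKO saline. Gene by gene, the coefficient of variation over the 4 libraries had a median of 10.6% in control saline, 49.5% in control cocaine and 33.5% in cKO saline over the 42 tested members, beside 6.65%, 8.83% and 6.72% over all tested genes.

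**Figure D2:**
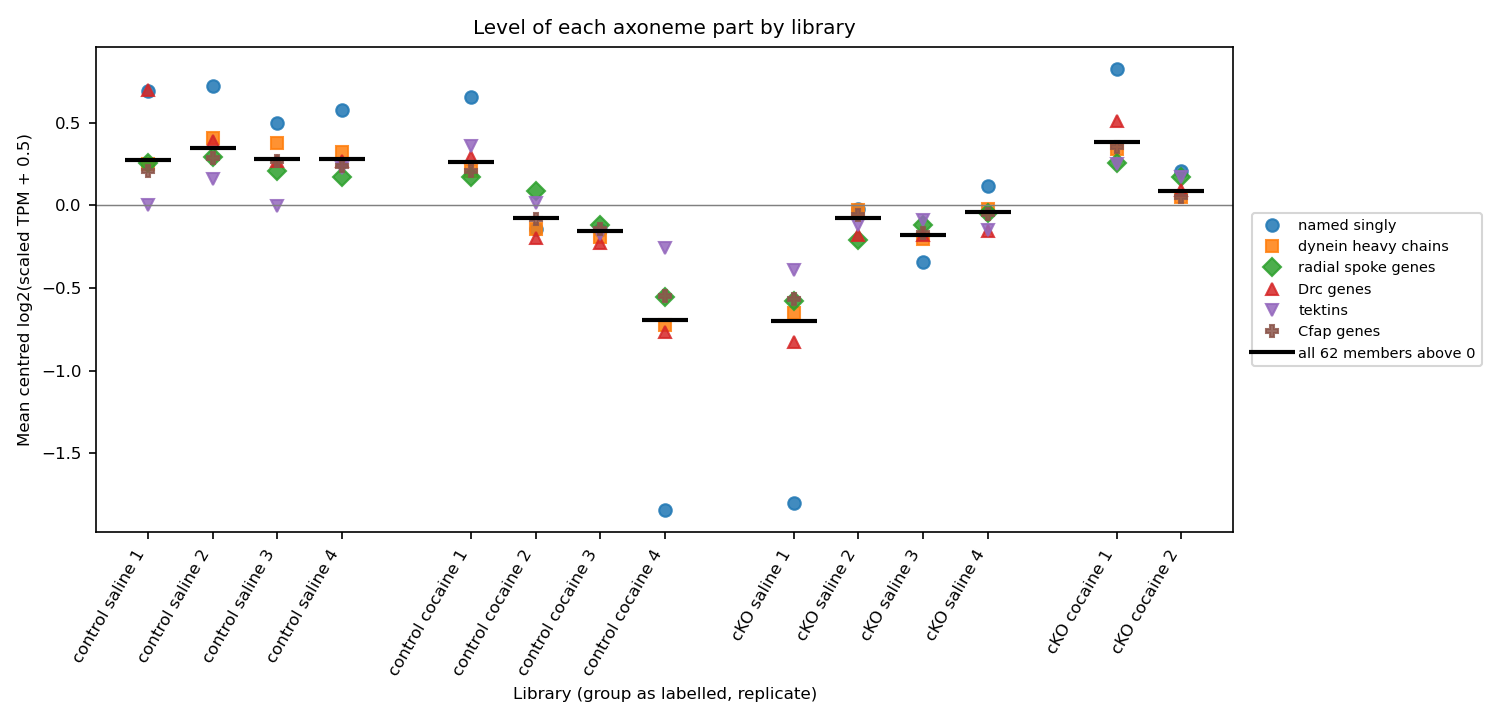
Mean centred log2(scaled TPM + 0.5) of the members of each part (symbols) and of all 62 members above 0 (black bars) in each library. The genes named singly span the widest range, from -1.84 in control cocaine 4 to 0.83 in cKO cocaine 1, and the tektins the narrowest.

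The parts of the axoneme shared the low pair. In control cocaine 4 and cKO saline 1 the dynein heavy chains stood at -0.72 and -0.65 on this scale, the Drc genes at -0.77 and -0.82, the Rsph genes at -0.55 and -0.58, the Cfap genes at -0.55 and -0.56 and the tektins at -0.26 and -0.39. The genes named singly stood at -1.84 and -1.80. The 41 members with that lowest pair had means of -1.0 and -0.98 there, and the other 21 members had -0.09 and -0.16, a split made from these values themselves. The members lie on 18 chromosomes by the 61 that GENCODE M21 places. In unsorted tissue, fewer ciliated cells and less RNA per ciliated cell cannot be told apart.

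Members that did not follow included the most abundant Cfap genes. Cfap36 was at 25.4, 27.0, 25.0 and 27.9 scaled TPM in control saline and at 28.7 and 29.1 in control cocaine 4 and cKO saline 1. Cfap298 was at 9.26 to 10.4 in control saline, at 10.4 in control cocaine 4 and at 8.60 in cKO saline 1. Cfap74, a central apparatus protein, ranged from 5.59 to 7.19 over all 14 libraries, and Cfap97 from 4.00 to 5.13. Tekt5, a tektin known from sperm flagella, was at 133.9% and 113.8% of its control saline mean in the low pair, above it in both. Rsph3a and Rsph3b, copies of the spoke stalk gene on chromosome 17, were at 109.8% and 88.8%, and at 86.5% and 68.8%. As close copies they may share reads, so the split between them is uncertain.

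**Figure D3:**
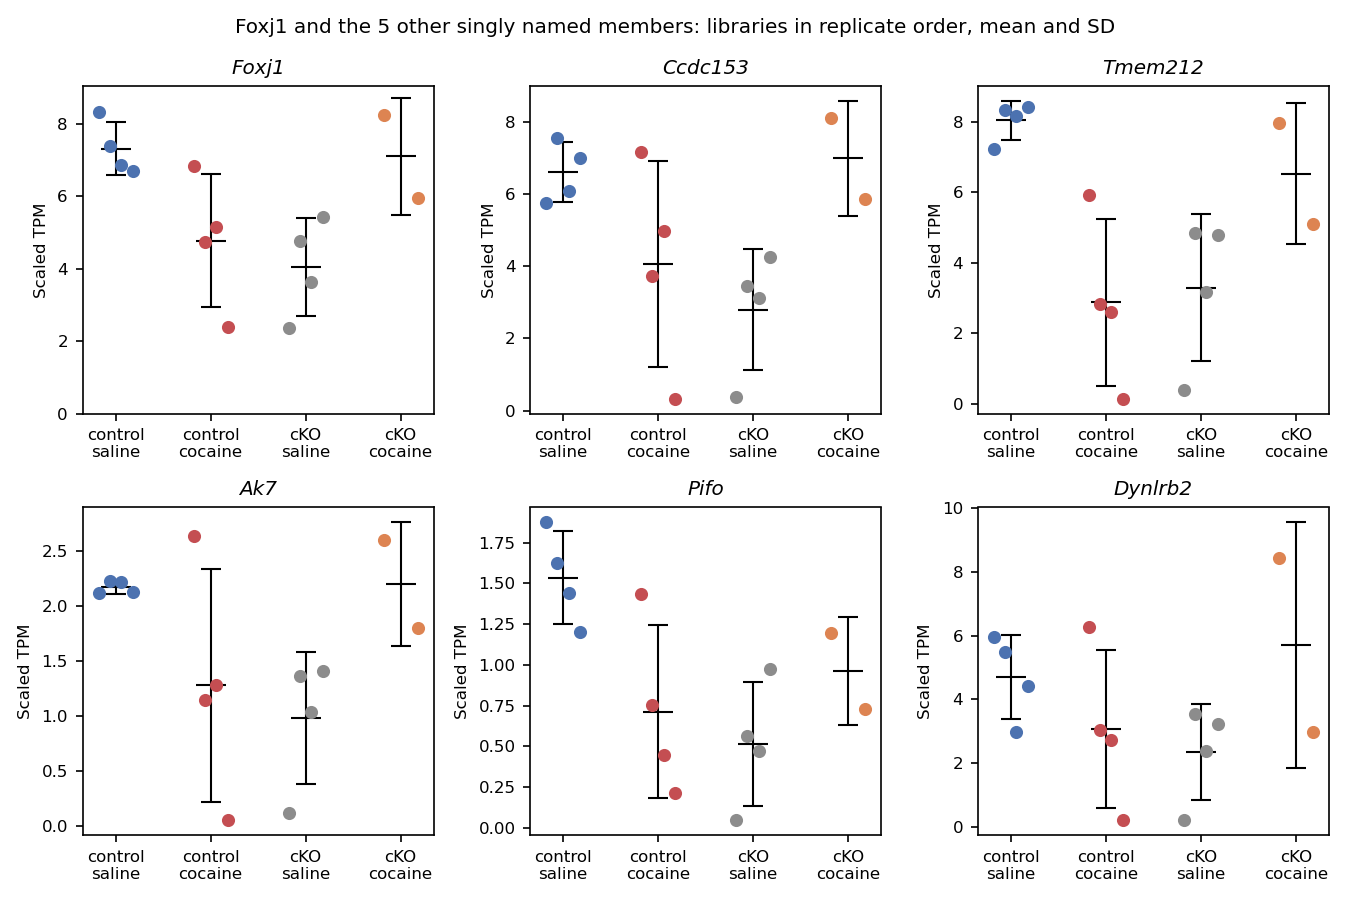
Scaled TPM of Foxj1, Ccdc153, Tmem212, Ak7, Pifo and Dynlrb2 in each library (points, in replicate order), with the mean and SD of each labelled group (4, 4, 4 and 2 libraries). For all 6 genes control cocaine 4 and cKO saline 1 are the lowest 2 libraries.

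Within the dynein arms, Dnah10, an inner-arm heavy chain, was at 0.817, 1.04, 1.18 and 0.968 scaled TPM in control saline, and at 0.142 and 0.127 in control cocaine 4 and cKO saline 1. The other libraries of those groups lay between, at 0.367 to 0.604, except control cocaine 1 at 0.930. Of the nexin link, Drc3 was at 4.52 to 5.08 in control saline, with 2.19 and 2.33 in the low pair and 2.91 to 4.54 in the rest of their groups, while Drc1 kept 47.4% and 35.3% of its control saline mean. Drc1 and Drc3 therefore kept more of their level in the low pair than the dynein heavy chain Dnah6, which kept 5.9% and 6.6%, or Drc7, which was at 0.144 and 0.162 against 1.09 to 3.55 in control saline.

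Tektins differed among themselves. Tekt1 was at 0.249 and 0.465 in the low pair and had the pair as its lowest libraries. Tekt2 was at 0.831, 0.951, 0.981 and 0.862 in control saline, at 0.946 in control cocaine 4, within that range, and at 0.582 in cKO saline 1, the lowest of its group. Tekt4 was at 0.681 in control cocaine 4, among values of 0.534 to 1.33 in its group, and at 0.397 in cKO saline 1, the lowest of all libraries. Tekt5 was at 3.42, 4.41, 3.67 and 4.65 in control saline and at 5.14, 6.21, 5.61 and 5.41 in the libraries labelled control cocaine, higher throughout, by 0.43 on the log2 scale (limma adjusted p = 0.0146), under the fold change needed for a call.

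The 20 members above 0 that were too low to test included axonemal dyneins with the same pair at the bottom. Dnah11, an outer-arm heavy chain, was at 0.752, 0.762, 0.700 and 0.649 in control saline and at 0.0328 and 0.0705 in the low pair. Dnah3, of the inner arm, was at 0.529 to 0.893 in control saline and at 0.0168 and 0.0747 in the pair. Dnah17 and Dnah8, the outer-arm heavy chains of sperm, had means of 0.0194 and 0.0737 over all libraries, and these 2 were the dynein heavy chains without the low pair. These untested genes were named after their values were seen.

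RFX factors, partners of Foxj1 in switching on cilium genes, bind a motif called the X-box, and since the members moved together their promoters were searched for it. RefSeq promoters of GRCm38.p6 (250 bases before to 50 bases after a start site) matched 52 of the 63 member genes, with 60 promoters, out of 32851 in all. A gapped form of the X-box, GTNNCC followed after 3 bases by GNNAC, on either strand as for all motifs here, was found in 15 of the 60 (25.0%), and in 4.62% of all promoters. The stricter form, GTTGCC followed after 2 bases by GGNAAC, was found in 3.33%, and in 0.298% of all. The shorter GTTGCC was found in 33.3% against 12.5%, and GTTACC in 15% against 7.21%. The forkhead core TAAACA was found in 21.7% of member promoters and in 13.4% of all. GTTGCC is contained in the stricter form, so their matches overlap. The following stretches are shown with the gapped match in capitals, 5′ to 3′ on the gene's own strand. They come from members of different parts that were low in the pair, with Cfap298 as a member that was not. They run to at most 30 bases past the match, stopping earlier at the start site. Where the match itself reached the start site, the stretch ends with the match. The match began at the start site in Drc7 and past it in Dnah10, and it spanned the start site in Rsph9 and Cfap61.
Tekt1, chr11:72361883-72361927, minus strand: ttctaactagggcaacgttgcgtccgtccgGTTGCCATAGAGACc
Rsph9, chr17:46144193-46144236, minus strand: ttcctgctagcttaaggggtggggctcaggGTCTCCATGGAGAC
Drc7, chr8:95055073-95055116, plus strand: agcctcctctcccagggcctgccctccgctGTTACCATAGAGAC
Dnah10, chr5:124725059-124725102, plus strand: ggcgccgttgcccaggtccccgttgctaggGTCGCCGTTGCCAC
Cfap61, chr2:145934746-145934789, plus strand: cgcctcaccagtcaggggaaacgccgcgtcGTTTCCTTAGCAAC
Pifo, chr3:106001525-106001598, minus strand: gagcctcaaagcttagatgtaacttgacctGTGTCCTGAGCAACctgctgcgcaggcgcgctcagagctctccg
Cfap298, chr16:90934994-90935067, minus strand: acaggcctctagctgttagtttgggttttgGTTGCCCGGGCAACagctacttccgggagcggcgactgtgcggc
The stricter form was carried by Cfap298, in the stretch shown, and by Pifo, outside the marked match, which was at 13.9% and 3.1% of its control saline mean in the low pair. A match is a stretch of letters, not a bound site, and no match was tied to a level here.

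The first comparison by label set cocaine against saline under the control label. Under the control label, 8 of the 42 tested members were called lower with cocaine than with saline and 0 were called higher, which is 19.0% of them, beside 1.66% of all tested genes called lower. The 8 came from several parts: Dnah1 and Dnah12 (inner-arm dynein heavy chains), Rsph4a and Rsph9 (spoke heads), and Cfap300, Cfap54, Cfap61 and Cfap65. The median log2 difference of the 42 was -0.59, with 38 below 0, beside a median of 0.00 over all tested genes, of which 49.7% were below 0. Since some members passed the filter only through control saline, these counts describe the members and are not evidence on their direction.

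The called members showed how the labelled group was made up. Cfap300, needed to bring dynein arms into the cilium, was at 2.91, 2.48, 2.23 and 2.66 scaled TPM in control saline and at 1.31, 1.55, 1.86 and 0.890 in the libraries labelled control cocaine, a log2 difference of -0.71 ± 0.17 (SE, limma adjusted p = 0.0109). Here the groups did not overlap, and control cocaine 1 was low as well. Dnah1 was at 1.11, 1.60, 1.29 and 1.29 against 0.996, 0.752, 0.648 and 0.239, a difference of -0.69 ± 0.20 (limma adjusted p = 0.0240). Its groups did not overlap either, though 0.996 lay close to 1.11. Rsph9 was at 7.496, 6.39, 6.07 and 5.06 against 4.82, 4.98, 4.10 and 2.21, a difference of -0.62 ± 0.20 (limma adjusted p = 0.0441).

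In other called members the groups could overlap. Cfap65, of the central apparatus, was at 1.56, 1.96, 2.07 and 1.71 in control saline and at 1.58, 0.691, 0.558 and 0.124 in the libraries labelled control cocaine (log2 difference -1.04 ± 0.33, limma adjusted p = 0.0374). Dnah12 was at 0.794, 1.06, 1.00 and 0.995 against 0.806, 0.381, 0.328 and 0.0251 (-0.79 ± 0.26, limma adjusted p = 0.0437). For both, control cocaine 1 lay inside the control saline range. Dnah12 reached 1 TPM in control saline only, and Dnah1 and Cfap61 passed the filter only with control saline counted, so these were tested because of the group in which they were high. Cfap61, of the spoke base, Rsph4a and Cfap54, named after its values were seen, differed by -0.60 ± 0.20, -0.90 ± 0.31 and -0.82 ± 0.28, with limma adjusted p from 0.0453 to 0.0496.

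Some members had sizeable differences that did not pass. Tmem212 was at 5.93, 2.82, 2.60 and 0.146 in the libraries labelled control cocaine, a log2 difference of -1.74 ± 0.65 from control saline (limma adjusted p = 0.0674), and its groups did not overlap. Dnah6, an inner-arm heavy chain, was at 1.89, 1.92, 1.82 and 1.84 in control saline and at 1.56, 0.699, 0.882 and 0.110 in the libraries labelled control cocaine, also without overlap (-0.98 ± 0.34, limma adjusted p = 0.0554). Ccdc153, Ak7 and Dynlrb2 had differences of -1.02 ± 0.63, -0.83 ± 0.45 and -0.88 ± 0.66 with overlapping groups. Counted over all 62 members above 0, the libraries labelled control cocaine lay wholly below control saline for 17 and wholly above for 3 (Cfap36, Cfap298 and Tekt5), beside 8.6% of the 20427 genes above 0 that lay wholly below.

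The count of 8 rested on single libraries. It was 1 (Cfap300) without control saline 2, control saline 3 or control cocaine 4, 2 without control saline 4 or control cocaine 3, 3 without control saline 1, 4 without control cocaine 2, cKO saline 2, cKO saline 3 or either cKO cocaine library and 5 without cKO saline 4, but 15 without cKO saline 1 and 23 without control cocaine 1. Cfap300 was called in all 14 of these fits. The count was 0 with the genotype taken from the tag or with the 10 libraries whose title and tag agree, and 27 with TPM as deposited. With TPM as deposited, however, 2372 of all 13471 tested genes were called lower, beside 223 with scaled TPM. Without control cocaine 4 and cKO saline 1 together it was 5, of which Cfap300, Cfap65 and Dnah12 were among the 8 and Dnah6 and Tmem212 were not.

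The second comparison by label set cocaine against saline under the cKO label. Here 3 of the 42 were called higher with cocaine than with saline and 0 lower, which is 7.14%, beside 1.97% of all tested genes called higher. The median log2 difference was 0.50, with 41 of 42 above 0, beside 0.01 over all tested genes. Relative to TPM as deposited, whose median over all tested genes was shifted by -0.34 for cocaine in control and by -0.35 in the cKO, the cKO count above 0 was 31 and the control count below 0 was 41. Over the 62 members the libraries labelled cKO cocaine lay wholly above cKO saline for 34 and wholly below for 0, beside 17.9% of all genes.

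Rsph1, a spoke head protein, was at 0.663, 1.92, 2.13 and 1.99 scaled TPM in cKO saline and at 4.33 and 4.67 in the libraries labelled cKO cocaine, a log2 difference of 1.27 ± 0.39 (limma adjusted p = 0.0354). Cfap52, a protein of the doublet inner wall, was at 0.0658, 0.497, 0.383 and 0.510 against 1.27 and 1.08 (0.99 ± 0.29, limma adjusted p = 0.0297). Drc1, a scaffold of the nexin link, was at 0.870, 1.83, 1.64 and 1.45 against 3.58 and 2.34 (0.83 ± 0.23, limma adjusted p = 0.0259). For each of these the groups did not overlap, and the 3 libraries beside cKO saline 1 were close together. Rsph3b had the smallest adjusted p of the members in this comparison (limma adjusted p = 0.00962) at a difference of 0.46 ± 0.10, under the fold change needed for a call, and the split of reads with Rsph3a is uncertain.

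None of the 3 was called without cKO saline 1, without cKO cocaine 1, where Rsph3b alone was called, or without cKO cocaine 2, where the median log2 difference of the members rose to 0.70. In the last 2 fits cKO cocaine is a single library assumed to vary like the other groups. It was 6 without control cocaine 4, and 0 by the tag or with the 10 libraries. Without cKO saline 1 and control cocaine 4 together it was 4, the same 3 and Ccdc153.

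**Figure D4:**
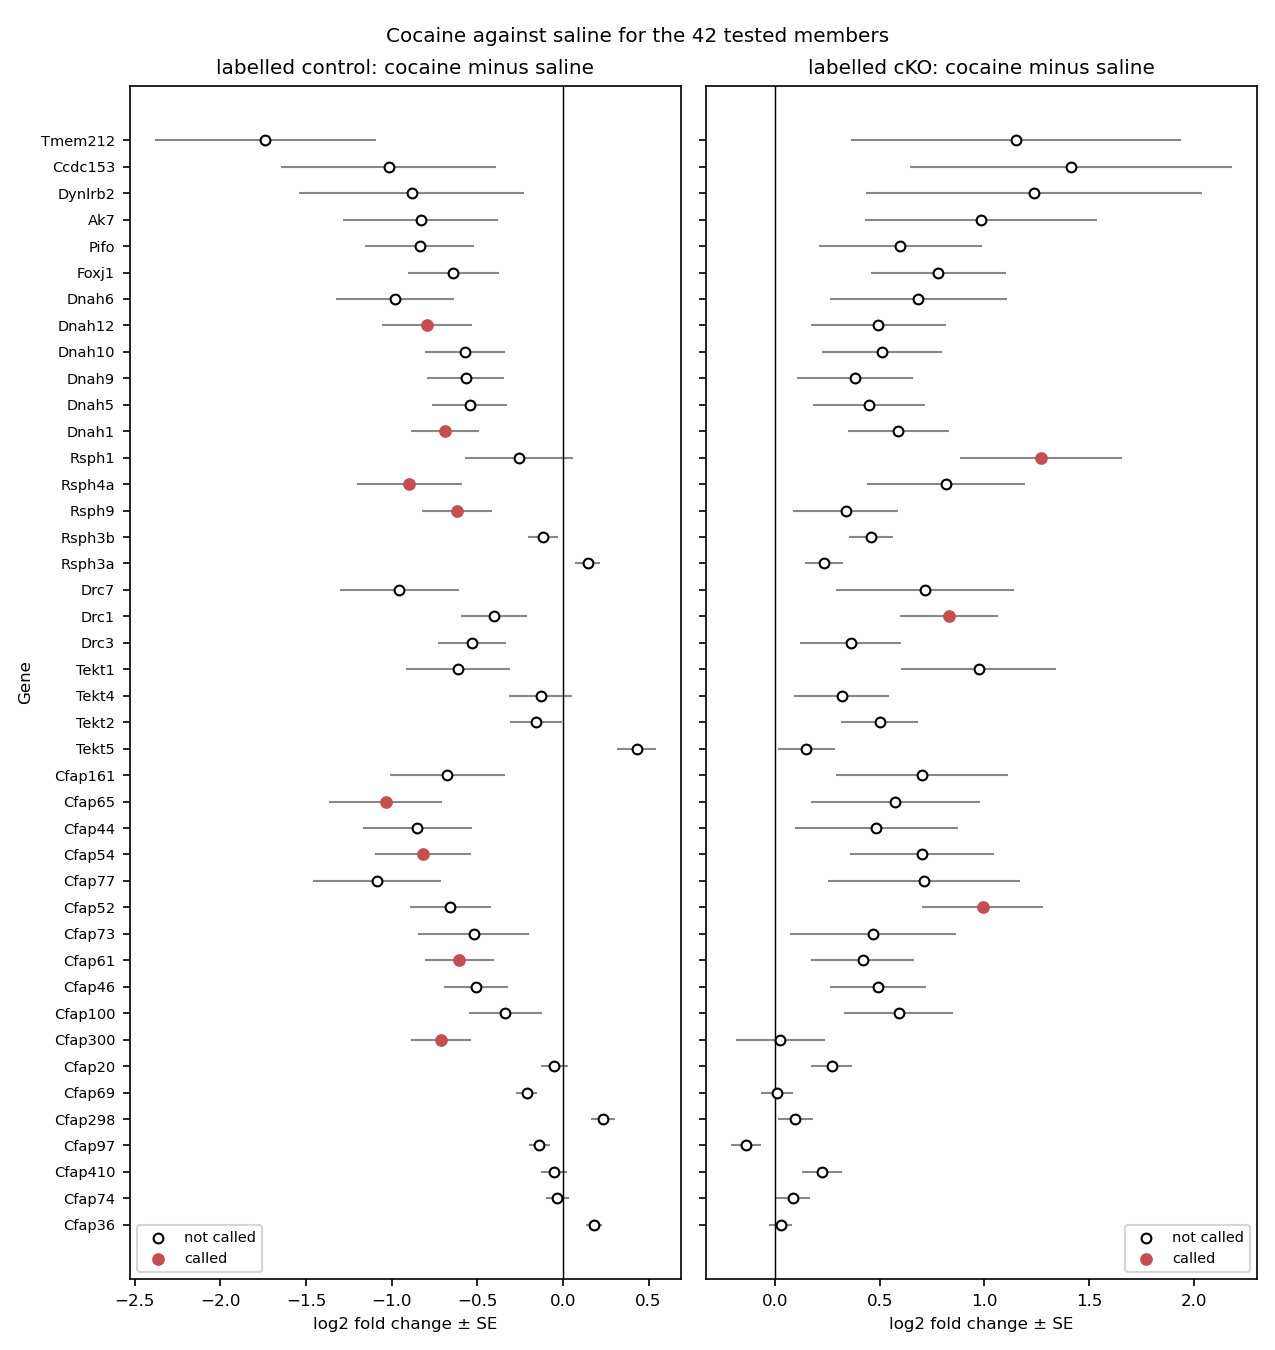
Log2 fold change of cocaine against saline with its SE for the 42 tested members, in the libraries labelled control (left) and cKO (right), with called members in red. The left panel has 8 red points, all below 0, and the right panel has 3, all above 0.

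The comparisons of genotype share libraries with those of cocaine. After saline, 0 of 42 members were called between cKO and control, beside 0.052% of all tested genes called in either direction. Of the 42, 30 had an unadjusted limma p under 0.05, beside 16.7% of all tested genes, and the smallest limma adjusted p was 0.0783, for Cfap52. Cfap52, Dnah5 and Dnah9 were among the 11 members that passed the filter only with control saline counted, so this count too is a description and no evidence on direction. The median log2 difference was -0.74, with 39 of 42 below 0, and over the 62 members cKO saline lay wholly below control saline for 39, beside 5.66% of all genes. Tekt1, for example, was at 1.92, 1.60, 1.31 and 2.00 scaled TPM in control saline and at 0.465, 1.13, 0.786 and 0.942 in cKO saline (-0.75 ± 0.30). Dnah9, an outer-arm heavy chain, was at 1.23, 1.39, 1.39 and 1.22 against 0.321, 0.832, 0.797 and 1.17 (-0.54 ± 0.23), and Dnah5, its partner in the outer arm, at 1.02 to 1.1 against 0.258, 0.772, 0.561 and 0.738 (-0.56 ± 0.22). The libraries other than cKO saline 1 were thus also below control saline for these genes, by less. Without cKO saline 1 the median difference was -0.51, and with the genotype taken from the tag in place of the title it was 0.13, the opposite sign.

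After cocaine, 0 of 42 were called between the libraries labelled cKO and control, beside 0.0371% of all tested genes in either direction. The smallest limma adjusted p was 0.342, and 6 had an unadjusted limma p under 0.05, beside 11.9% of all tested genes. The median log2 difference was 0.49. The libraries labelled cKO cocaine lay wholly above those labelled control cocaine for 8 members, among them Rsph1 and Tekt2, and wholly below for Cfap36 and Cfap298, beside 7.54% of all genes wholly above.

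The interaction, which is the cocaine difference in the cKO minus that in control, was called for 0 of 42 members, beside 0.802% of all tested genes. Its median over the members was 1.05, with 38 above 0, and 34 had an unadjusted limma p under 0.05, beside 18.1% of all tested genes. Control saline enters the interaction, and 11 members, Cfap52 and Dnah1 among them, passed the filter only with control saline counted. These counts too are a description and no evidence on direction. The smallest limma adjusted p was 0.0520, for Cfap52 (1.65 ± 0.37), followed by Rsph3b (0.58 ± 0.14, limma adjusted p = 0.0588), Dnah1 (1.28 ± 0.31) and Drc1 (1.23 ± 0.30), both at a limma adjusted p of 0.0662. Without control cocaine 1 the count was 8, and without the low pair it was 0 with a median of 0.74. In 5 members, Cfap44, Cfap47, Cfap70, Dnah6 and Rsph9, all 4 control saline libraries lay above the 10 others, beside 0.72% of all genes.

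Foxj1, as the single regulator, was also compared by exact two-sided permutation tests over the libraries. Its mean log2 level was lower after cocaine than after saline under the control label (a difference of -0.64, exact permutation p = 0.0571, adjusted over 4 comparisons 0.114) and lower in cKO saline than in control saline (-0.83, exact permutation p = 0.0286, the smallest that 4 against 4 allows, adjusted 0.114). The libraries labelled cKO cocaine stood 0.78 above cKO saline (exact permutation p = 0.133, the smallest that 2 against 4 allows, adjusted 0.178) and 0.59 above those labelled control cocaine (exact permutation p = 0.267, adjusted 0.267). None of the 4 passed after adjustment, and with groups of these sizes none could have, so this is not evidence that Foxj1 was unchanged.

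Genes of the same organelle that the naming rule left out were mostly lowest in the same pair. Lists of the outer arm, dynein assembly, nexin link and ruler, central pair, other spoke, other cilium and ciliogenesis genes held 53 genes, of which 51 were in the tables and 31 were tested. Control cocaine 4 and cKO saline 1 were the lowest 2 libraries for 32 of the 50 that were above 0, beside the 2.67% over all genes. For cocaine under the control label 4 of the 31 were called lower (Dnaaf3, Spag6l, Spag16 and 1110017D15Rik) and 1, Gas8, was called higher, beside 1.66% of all tested genes lower. Under the cKO label 8 were called higher (Dnaaf3, Zmynd10, Gas8, Ccdc39, Ccdc40, 1110017D15Rik, Tppp3 and Rfx2) and 0 lower, beside 1.97% of all tested genes higher. Those named here by their calls were chosen after their values were seen.

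Dnaaf3, a factor that assembles dynein arms before they enter the cilium, was at 1.11, 0.893, 1.008 and 0.897 scaled TPM in control saline and at 0.684, 0.480, 0.311 and 0.111 in the libraries labelled control cocaine. In cKO saline it had 0.129, 0.578, 0.269 and 0.502, and the cKO cocaine label had 1.25 and 1.17, without overlap in either comparison. Its interaction was called (1.77 ± 0.33, limma adjusted p = 0.0322). Dnaaf3 passed the filter only with control saline counted, and that group enters both its call under the control label and the interaction. These calls therefore describe it and are no evidence on direction. Gas8, which is the Drc4 subunit of the nexin link, went another way, between 5.17 and 6.52 in control saline and between 4.999 and 5.49 in cKO saline. With cocaine it was between 8.24 and 9.45 under the control label, and at 7.996 and 9.5 under the cKO label. It was higher in both sets of cocaine libraries (0.57 ± 0.07 and 0.69 ± 0.09, limma adjusted p = 0.000294 and 0.000465) and was not low in the low pair.

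Cytoplasmic dynein, a motor that carries cargo, was read from 10 genes. The set includes Dync2h1, Dync2li1 and Dynll1 and is not free of genes that serve cilia. All 10 were tested, 1 was called, Dynlrb1, and none had the low pair as its lowest libraries. Dynlrb1, the cytoplasmic paralog of Dynlrb2, was at 49.3, 68.0, 59.5 and 59.1 scaled TPM in control saline and between 56.6 and 62.4 in cKO saline. With cocaine it was between 94.8 and 102 under the control label, and at 107 and 103 under the cKO label. It was higher with cocaine under both labels (0.75 ± 0.07 and 0.81 ± 0.09, limma adjusted p = 6.07e-05 and 0.000276). Dynlrb2 was at 5.97, 5.48, 2.99 and 4.41, then 6.27, 3.04, 2.74 and 0.236, then 0.219, 3.55, 2.37 and 3.23, and 8.42 and 2.97 in the same order of groups. The 2 light chains therefore differed in level and in which libraries were low.

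Marker lists of neighbouring tissue also varied between libraries. The 8 medial habenula markers, of a nucleus that borders the ventricle, summed to 185.0 to 208.3 scaled TPM in control saline, to 294.8, 130.7, 128.1 and 81.3 in the libraries labelled control cocaine, to 59.9, 104.2, 129.1 and 119.3 in cKO saline and to 194.7 and 160.8 under the cKO cocaine label. The lowest 2 sums were again those of cKO saline 1 and control cocaine 4, and no marker of this list was at 0 in any library. Calb2 was the most abundant marker of this list in every group. It was at 119.7 to 135.7 in control saline, and at 71.4 and 44.6 in control cocaine 4 and cKO saline 1. Tac2, Gpr151, Nwd2, Chrnb4, Chrna3 and Pou4f1 fell further and had that pair as their lowest 2 libraries. Chrnb4, for example, was at 3.16 to 4.55 in control saline and at 0.573 and 0.664 in the pair. Tac1 was at 6.22 to 9.77, 1.58 and 5.999 in the same order. Of the 8, Calb2 was called, lower with cocaine under the control label and higher under the cKO label, and also in the interaction. The part of the habenula in the members' result was not tested. The 6 thalamus markers ranged from 298.2 to 560.9 with the highest sum in control cocaine 4. Among them, Lef1 and Prkcd were called higher with cocaine under the control label, and Gbx2 under the cKO label.

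The 10 choroid plexus markers, of the secretory tissue of the ventricles, which also bears cilia, summed to 1475.4 in control saline 1 and to 17.1 to 59.6 in the other control saline libraries. Under the control cocaine label they summed to between 6.24 and 27.2, in cKO saline to between 4.28 and 46.3, and under the cKO cocaine label to 12.0 and 14.5, with Ttr the most abundant in every group. Kcnj13, Folr1 and Tmem72 were at 0 in some libraries. Again cKO saline 1 and control cocaine 4 had the lowest sums, but in control saline 1, with the highest, the member level was 0.27, beside 0.28 to 0.35 in the rest of its group. Drc7, a nexin link subunit, was at 3.55 in control saline 1 and 1.09 to 1.35 in the other 3, and 8 members had their highest value in that library. The 10 hypothalamus markers summed to between 136.0 and 468.7 in control saline and between 12.5 and 149.1 in cKO saline. With cocaine they summed to between 4.69 and 130.2 under the control label, and to 36.7 and 76.5 under the cKO label. Of the low pair, control cocaine 4 had 9.58, the second lowest sum, and cKO saline 1 had 149.1, while control cocaine 1, where the members were high, had the lowest. Of the 8 hypothalamus markers tested, Oxt, Avp, Trh and Gal were called lower with cocaine under the control label and were called in the interaction, and Oxt was called lower in cKO saline than in control saline. Agrp, Hcrt and Oxt were at 0 in some libraries, and the part of either list in the members' result was not tested.

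**Figure D5:**
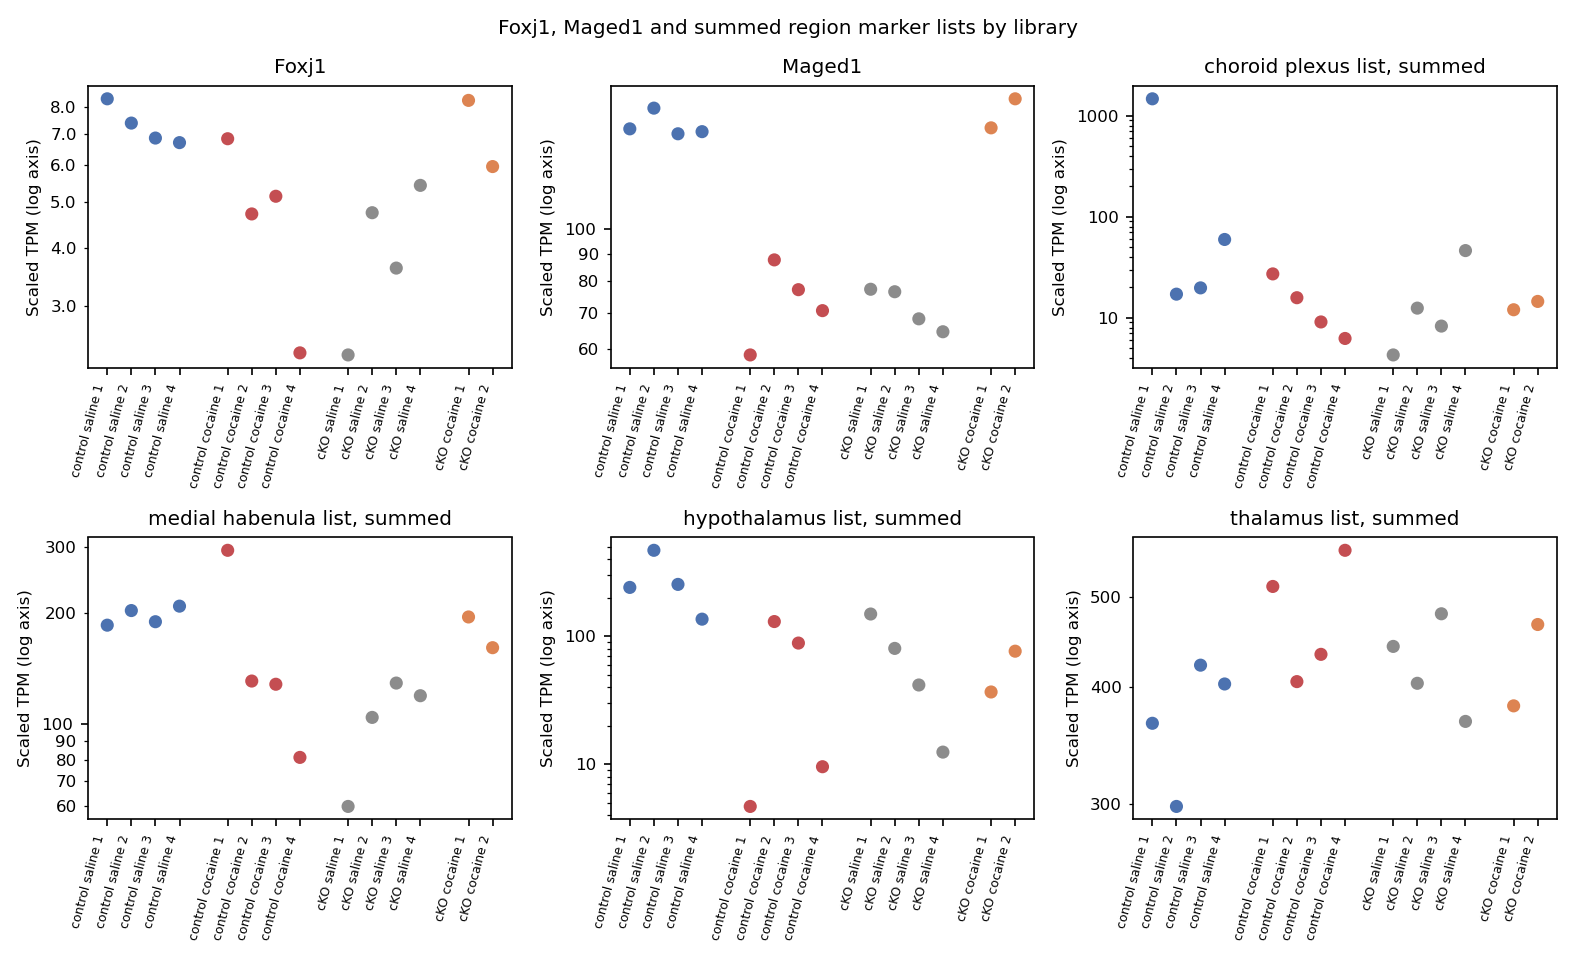
Scaled TPM (log axes) of Foxj1 and Maged1 and of the summed choroid plexus, medial habenula, hypothalamus and thalamus marker lists in each library, coloured by labelled group. Foxj1, the choroid plexus sum and the medial habenula sum are lowest in control cocaine 4 and cKO saline 1, while Maged1 is not.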

How the data were processed

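RNA-seq of mouse thalamus was analysed in 14 libraries. The values are TPM as deposited by the authors, who, according to the paper's methods and processing notes, aligned stranded paired reads with STAR 2.5.3a to GRCm38, quantified them with Salmon and summarized them per gene. TPM keep no depth, so counting error is unknown, and the totals over the listed genes ran from 312659 to 377401 TPM. In 2 deposited tables TPM are written with a decimal comma, recorded as unit other, and were read as decimals. Groups follow the titles.

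TPM were divided by unweighted TMM factors computed over the tested genes (30% of log ratios and 5% of means trimmed), 0.5 was added, and log2 values of genes that reached 1 TPM in 3 or more libraries entered limma 3.58.1 (R 4.3.3), with a mean per group and a prior variance that follows intensity. Calls needed an adjusted p-value under 0.05 and a log2 fold change of at least 0.5. Foxj1 was compared by exact permutation. Python 3.11.15, numpy 2.4.6, pandas 2.3.3, scipy 1.17.1 and matplotlib 3.10.9 made the tables and plots, and coordinates are from GENCODE M21.

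The fit was tested on simulated data for cocaine in control, where 13471 genes included 200 shifted by 1 on the log2 scale, and it called 200 of these and 4 others. The simulated noise was independent between genes and followed the spread of all genes of like level. The members varied together and more widely within groups, so this does not give the error for them. Members and lists were chosen with earlier results of these data known. Named were the 6 single genes, every tested Dnah, Rsph, Tekt and Drc gene, the 6 most abundant Cfap genes and the 3 called Cfap genes with the smallest adjusted p per contrast, Maged1, Dynlrb1 and list genes. Alternatives covered scaling, pseudocount, filter, the libraries and groups fitted, trend, replicate block, array weights, the genotype tag and each library left out. Removing control cocaine 4 and cKO saline 1 together was chosen after seeing the data.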

Additional observations from a re-analysis of the deposited data

Results flagged for a closer look

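In groups of 4 libraries, a library was marked where its gap to the nearest other, over the group's range, exceeded Dixon's 95% critical value. Of 123 groups examined 5 were marked, and chance marks about 1 in 20. Drc7 was at 3.55 scaled TPM in control saline 1 and at 1.09 to 1.35 in the other 3. Rsph1 was at 0.663 in cKO saline 1 and at 1.92 to 2.13 in the others. Cfap410 was at 9.66 in cKO saline 4 and at 8.47 to 8.60 in the others, a small difference. The mean centred log2 level of the members was 0.35 in control saline 2 and 0.27 to 0.28 in the others. The choroid plexus list summed to 1475.4 in control saline 1 and to 17.1 to 59.6 in the others.

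Some genes changed differently with cocaine under the labels control and cKO, by the limma interaction test. Maged1 had an interaction of 2.28 on the log2 scale (limma adjusted p = 5.53e-05), which is where the targeted gene goes against the cocaine labels. Of the motile cilium genes outside the naming rule, Tppp3, a tubulin-binding protein, had 0.89 (0.00148), Dnaaf3 1.77 (0.0322) and 1110017D15Rik 2.33 (0.0452). Dnaaf3 passed the filter only with control saline counted, so its call is a description and no evidence on direction. Tppp3 was at 41.2 to 41.5 scaled TPM in control saline, between 27.4 and 32.2 in cKO saline, between 30.01 and 34.4 with cocaine under the control label, and at 45.7 and 41.1 under the cKO label. No member of the naming rule passed this test at an adjusted p under 0.05.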

How the results depend on the processing

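Members called lower for cocaine in control (8) were 27 with TPM as deposited, 13 with array weights, 5 without the trend, 4 with quantile normalization, 3 at a pseudocount of 0.1, 2 with only the compared groups, 0 at a mean of at least 5 TPM (9 members tested), 0 by the genotype tag, 0 with the 10 libraries whose labels agree, 5 without control cocaine 4 and cKO saline 1, and 1 to 23 over single libraries left out. Over all 13471 tested genes, 223 were called lower in the fit reported above, 2372 with TPM as deposited and 252 with array weights. Called higher in the cKO (3) were 0 at a mean of 5 TPM, by the tag and with 10 libraries, and 0 to 6 over single libraries. After saline (0) array weights gave 8, and single libraries 0 to 1. Array weights there called 108 of all tested genes lower, beside 6 without them. The interaction (0) gave 1 at a pseudocount of 1 and with array weights, and 0 to 8 over single libraries.

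Median log2 differences kept their sign except after saline by the tag, 0.13 (Foxj1 0.078). For cocaine in control they were -0.050 at a mean of 5 TPM and -0.17 by the tag, in the cKO 0.80 at a pseudocount of 0.1 and 0.11 by the tag, after saline -0.14 and after cocaine 0.13 at a mean of 5 TPM. For the interaction they were 1.54 at a pseudocount of 0.1, 0.28 at a mean of 5 TPM, 0.34 by the tag, 0.74 without the low pair and 0.87 to 1.36 over single libraries. Ranges of the member level were 0.13 in control saline with TPM as deposited, and 0.12, 1.57 and 1.15 in control saline, control cocaine and cKO saline at a pseudocount of 0.1. Foxj1 for cocaine in control was -0.98 with TPM as deposited and -0.62 with quantile normalization, both at an exact permutation p of 0.0286. The cause of these changes was not tested, except that the mean filter tests fewer members and the genotype tag moves 4 libraries.

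With the replicate number as a block, 2 members were called lower for cocaine in control and 0 in the cKO. Libraries of the same number did not deviate together (mean r of -0.014 over 18 pairs, 0.0046 for different numbers, with 3 of 14 closest to their own number). No pairing by number was thus seen, and what samples of the same number share is not known.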
